A study of Homo sapiens with 4 samples.

Results

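The CCR4-NOT complex shortens the poly(A) tails of mRNAs, which is the first step in the decay of most transcripts. Its scaffold, CNOT1, holds a CAF1-type nuclease (CNOT7 or CNOT8), which in turn binds a CCR4-type nuclease (CNOT6 or CNOT6L), together with the NOT module (CNOT2 and CNOT3), CNOT9, and the CNOT10-CNOT11 module. RNA-binding proteins bring the complex to their target mRNAs, and the mRNAs of the complex's own genes can be cleaved at more than 1 site in the 3′ UTR. The genes described here are CNOT1, CNOT2, CNOT3, CNOT6, CNOT6L, CNOT7, CNOT8, CNOT9, CNOT10 and CNOT11. They were taken as a complex, which was selected on 1 measured value: the change of CNOT6 with l-lactate in the usage of its last 3′ UTR site, a fall in both cell lines. A poly(A) cluster (PAC) belonged to a gene when its dominant site, the position with the most tags, lay within the gene's span in the GENCODE 44 annotation on the same strand. In this way 22 of 17627 PACs were assigned to the 10 genes, of 11260 genes with a PAC, and 19 of the 22 lay in a 3′ UTR.

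PAS-seq reads out the cleaved, polyadenylated end of each transcript. It was applied to 4 libraries of 2 established human esophageal squamous cell carcinoma (ESCC) lines, KYSE30 and TE-1. In each line, 1 library came from cells given l-lactate (20 mM for 24 h, as the study's figure legends state) and 1 from control cells, whose treatment is labelled as PBS. The labels describe no genetic change in any group. The cell line labels of both control samples name other lines, and the sample titles, which give KYSE30 and TE-1, were followed. With 1 library per group, the l-lactate comparisons had no replicate check within a line, and they are given as values with 95% intervals that cover counting error only.

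The libraries held between 7174991 and 10393799 tags and listed between 14810 and 15048 PACs. A PAC of 1 nt was listed from a TPM (the tags of a PAC scaled to a fixed total per library) of 3.07 to 3.10, or 22 to 32 tags, so that an unlisted PAC is not shown to be absent. EPCAM, an epithelial adhesion protein, was at 563 and 635 TPM in the control and l-lactate libraries titled KYSE30 and at 30.7 and 36.4 TPM in those titled TE-1. Of 7 squamous epithelial markers, 4 were listed in at least 1 library and 1 in all 4, and their summed level was 788 to 904 TPM in KYSE30 and 224 to 275 TPM in TE-1. EPCAM and CDH1 (E-cadherin), which mark epithelia in general, made up most of the KYSE30 sum, whereas the keratin KRT17 was at 245 and 187 TPM in the control and l-lactate libraries of TE-1 and was not listed in KYSE30. The basal keratinocyte genes KRT5, KRT14 and TP63 were listed in none, and CDH1 was at 204 and 228 TPM in KYSE30 but at 1.30 TPM with l-lactate in TE-1 and not listed in its control. Fibroblast markers were listed only in TE-1 (2 of 4 genes, summing to 9.53 and 11.7 TPM). Of 3 leukocyte markers only CD68 was listed, at 3.48 to 15.2 TPM, while PTPRC and CD3E were not, and neither of 2 endothelial markers was listed. These markers differ between the lines, as do the levels described next, and their part in those differences was not tested. In bulk libraries, fewer cells of a type and less RNA per cell cannot be told apart.

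The cleavage sites of the complex are shown first, because the comparisons turn on them. Each PAC is numbered in the direction of transcription, and each sequence gives the 30 nt of the reference genome (hg38) that end at the dominant site, or 1 nt before it for CNOT6 PAC 2, with the poly(A) signal in capitals. CNOT6 lies on chromosome 5 at 180494379-180578358 on the plus strand. Its PAC 1 is intronic, and its PACs 2, 3 and 4 lie in the 3′ UTR of the canonical transcript, at 1996, 2620 and 4153 nt past the stop codon, the last of them 5 nt before the annotated gene end.
CNOT6 PAC 1, intron, chr5:180569889-180569918, plus strand: gatagtatacAATAAAcagtagcccttgta
CNOT6 PAC 2, 3′ UTR, chr5:180576166-180576195, plus strand: AATAAAaggtatgtttactcatttttcctg
CNOT6 PAC 3, 3′ UTR, chr5:180576791-180576820, plus strand: taaaatgcAATAAAaactagtatgttttca
CNOT6 PAC 4, 3′ UTR, chr5:180578324-180578353, plus strand: tattttaAATAAAtgcttttaaatacagta
All 4 carried the canonical AAUAAA, which ended 25 nt before the dominant site in PAC 2 and 14 to 17 nt before it in the others. The proximal and distal sites of CNOT6 therefore did not differ in this hexamer.

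In CNOT8 and CNOT1 the hexamer did differ between sites. CNOT8 lies on chromosome 5 at 154857553-154876792 (plus strand), with sites 341 and 1353 nt past its stop codon, and CNOT1 on chromosome 16 at 58519951-58629885 (minus strand), with sites 254 and 1001 nt past its stop codon.
CNOT8 PAC 1, 3′ UTR, chr5:154875751-154875780, plus strand: aacaaagtAGTAAAatgtatataactctta
CNOT8 PAC 2, 3′ UTR, chr5:154876763-154876792, plus strand: aaAATAAAgatttctttttaaccactggca
CNOT1 PAC 3, 3′ UTR, chr16:58520704-58520733, minus strand: atatcattttgaacttgtgtaAATACAtga
CNOT1 PAC 4, 3′ UTR, chr16:58519957-58519986, minus strand: gcatactgtagctaaccATTAAAgtcatga
CNOT6L PAC 1, 3′ UTR, chr4:77713387-77713416, minus strand: taggcAATAAAtggccattttgcaactgca
The proximal CNOT8 site had the variant AGUAAA, and the distal site had the canonical hexamer. Neither main 3′ UTR site of CNOT1 had the canonical hexamer. Its PAC 3 held AAUACA ending 3 nt before the dominant site, and PAC 4 held AUUAAA ending 7 nt before it. CNOT6L, the paralogue of CNOT6, had 1 listed PAC, 7044 nt past its stop codon at the end of the longest 3′ UTR of the 10 genes. A minor site of this gene could have gone unlisted. Over the 19 PACs in a 3′ UTR, 13 had AAUAAA in the 50 nt upstream, 2 had AUUAAA only, 3 had another variant and 1 had none of the hexamers searched. Among all 13584 PACs in 3′ UTRs, 66.7% had AAUAAA. The motif UGUA, which the cleavage factor NUDT21 binds, was present in the 100 nt upstream of 12 of the 19 sites, against 58.1% of all, and 0 of the 19 were followed by 12 or more adenines in the next 20 nt of the genome, against 0.633% of all. The hexamers and UGUA were sought on the transcribed strand only.

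The 10 genes spanned a wide range of levels. In PAS-seq the tags come from the 3′ end of a transcript, so levels need no correction for its length. Unlisted PACs and the lack of molecular identifiers limit the comparison between genes. The scaffold and the CAF1-type nuclease CNOT7 had the highest levels, and CNOT3 and CNOT9 the lowest. CNOT7 was at 131 TPM in the KYSE30 control, 121 TPM in KYSE30 with l-lactate, 184 TPM in the TE-1 control and 194 TPM in TE-1 with l-lactate. CNOT1, in the same order of libraries, was at 154, 157, 145 and 160 TPM. By mean level over the 4 libraries they stood at the 91.2 and 90.9 percentiles of genes with a PAC. CNOT9, which binds partner proteins of the complex, stood at the 14.2 percentile, with 4.58, 5.30 and 4.72 TPM in the KYSE30 control, KYSE30 l-lactate and TE-1 l-lactate libraries and no listing in the TE-1 control. CNOT3, of the NOT module, was at 9.29 and 10.3 TPM in KYSE30 and 3.85 TPM in the TE-1 control, and was not listed in TE-1 with l-lactate. CNOT9, with a PAC of 1 nt, and CNOT3 in the TE-1 control were thus near the lowest listed level of such a PAC, whereas CNOT3 in KYSE30 was above it.

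The order of the genes differed between the lines. In KYSE30 the mean level of the 2 libraries fell from CNOT1 (155 TPM) through CNOT7 (126), CNOT6 (106), CNOT11 (91.8), CNOT2 (63.3), CNOT8 (42.8), CNOT10 (26.5), CNOT6L (13.6) and CNOT3 (9.80) to CNOT9 (4.94 TPM), and the 2 libraries of each gene did not overlap with those of its neighbours. In TE-1 the order was CNOT7 (189 TPM), CNOT1 (152), CNOT11 (107), CNOT10 (52.7), CNOT6 (51.4), CNOT2 (47.0), CNOT8 (43.6) and CNOT6L (14.2 TPM). There CNOT10 and CNOT6 overlapped, as did CNOT6 with CNOT2 and CNOT2 with CNOT8, so that the order of these neighbours does not exceed the spread of their libraries.

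Between the lines, the CCR4-type nuclease CNOT6 had the smallest adjusted p of the genes lower in TE-1, and CNOT10 that of the genes higher in TE-1. Their mean TPM in TE-1 was 0.487 and 1.99 times that in KYSE30. The difference was tested with limma on log2(TPM + 1), with treatment as a term, over all 9126 genes with a mean of at least 5 TPM. Of the 9 genes of the complex tested, 6 passed an adjusted p of 0.05, 3 higher in TE-1 and 3 higher in KYSE30. CNOT3, among the latter, reached the minimum mean only through KYSE30. The lines differed widely, since 73.7% of all genes tested passed (36.9% in each direction), so that 6 of 9 is near the background. The median absolute difference was 0.43 over the 9 genes and 0.64 over all genes tested.

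CNOT6 was at 98.4 and 113 TPM in the control and l-lactate libraries of KYSE30 and at 48.6 and 54.2 TPM in those of TE-1. The groups did not overlap, and the log2 difference, TE-1 minus KYSE30, was -1.02 ± 0.09 (SE, 2 libraries per line, limma adjusted p = 1.22e-06). Its paralogue CNOT6L was at 12.7 and 14.5 TPM in KYSE30 and at 15 and 13.3 TPM in TE-1, which overlap, with a difference of 0.06 ± 0.17 (limma adjusted p = 0.770). CNOT7, the main CAF1-type nuclease, had no overlap between the lines and was higher in TE-1 by 0.58 ± 0.08 (limma adjusted p = 4.74e-05). CNOT8, its paralogue, was at 45.0 and 40.7 TPM in KYSE30 and 39.6 and 47.6 TPM in TE-1, overlapping, with a difference of 0.02 ± 0.12 (limma adjusted p = 0.885). In each pair of nuclease paralogues, the gene with the higher level passed the test and the gene with the lower level did not; whether the differences themselves differ was not tested.

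Among the other subunits, CNOT10 was at 28.0 and 24.9 TPM in KYSE30 and 53.0 and 52.3 TPM in TE-1, with no overlap and a difference of 0.97 ± 0.12 (limma adjusted p = 1.68e-05). CNOT11, which pairs with CNOT10, was at 87.5 and 96.0 TPM in KYSE30 and 106 and 108 TPM in TE-1, a smaller difference of 0.22 ± 0.08 (limma adjusted p = 0.0330). CNOT2, of the NOT module, was at 63.7 and 63.0 TPM in KYSE30 and 41.7 and 52.3 TPM in TE-1, and its difference of -0.43 ± 0.11 (limma adjusted p = 0.00443) was -0.60 between the controls and -0.26 between the l-lactate libraries. CNOT3 reached the minimum mean of 5 TPM only through KYSE30, with a mean of 9.80 TPM there and 1.92 TPM in TE-1. Its p-value is therefore given as a description only. CNOT3 was lower in TE-1 by a fitted -2.29 ± 0.43 (limma adjusted p = 5.66e-04). That value takes the unlisted library as 0 TPM. It was -1.28 with the lowest listed TPM of a 1-nt PAC in its place, and -1.09 between the controls. The scaffold CNOT1 differed by -0.03 ± 0.08 (limma adjusted p = 0.761), with libraries that overlap, and CNOT9 was below the minimum level and was not tested. When each library was left out in turn and the treatment term dropped, between 3 and 5 of the 9 genes passed. CNOT2, CNOT3 and CNOT11 each missed the threshold at least once, and CNOT6, CNOT7 and CNOT10 did not. In these fits the lone library of a line is assumed to vary like the 2 of the other line, so a pass is not a check of that line's own spread.

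The balance within the catalytic pairs followed these levels. CNOT6 made up 88.6% of the tags of CNOT6 and CNOT6L in the KYSE30 control (Wilson 95% interval 86.3% to 90.6%) and 88.6% with l-lactate (86.4% to 90.5%). In TE-1 it made up 76.4% in the control (73.0% to 79.5%) and 80.2% with l-lactate (76.8% to 83.3%). The share was thus lower in both TE-1 libraries, and within each line the intervals of control and l-lactate overlap. CNOT7 made up 74.4% (72.0% to 76.7%) and 74.9% (72.3% to 77.3%) of the tags of CNOT7 and CNOT8 in the control and l-lactate libraries of KYSE30. In TE-1 it made up 82.3% (80.7% to 83.8%) and 80.3% (78.5% to 82.0%), higher than in either KYSE30 library. The CCR4-type genes together held 38.7% (36.7% to 40.8%) of the tags of the 4 catalytic genes in the KYSE30 control and 44% (41.9% to 46.1%) with l-lactate, against 22.1% (20.7% to 23.7%) and 21.8% (20.3% to 23.5%) in TE-1. In KYSE30 this share was higher with l-lactate beyond the counting intervals, and in TE-1 it was not. The l-lactate tags include those of an intronic CNOT6 PAC, 38 in KYSE30 and 26 in TE-1, which was not listed in the controls. The share of the CCR4-type genes over 3′ UTR PACs alone was not worked out. Its rise in KYSE30 is thus not shown to exceed the counting intervals without the intronic tags. These shares come from 1 library each, and no test across replicates was possible for them within a line.

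**Figure D1:**
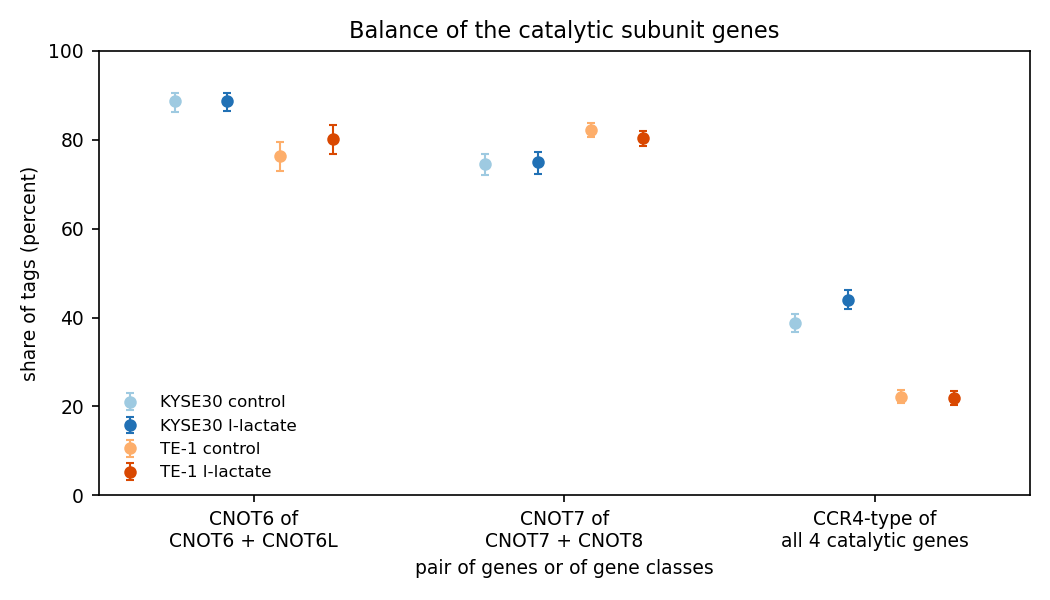
Share of tags, in percent, of CNOT6 within CNOT6 and CNOT6L, of CNOT7 within CNOT7 and CNOT8, and of the CCR4-type genes within all 4 catalytic genes, in each library with Wilson 95% intervals. CNOT6 takes 88.6% in both KYSE30 libraries and 76.4% and 80.2% in the TE-1 libraries.

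With l-lactate, no gene of the complex that could be compared changed its level by 0.5 or more on the log2 scale: 0 of 9 in KYSE30 and 0 of 8 in TE-1. Over all genes compared, 5.30% of 8767 in KYSE30 and 5.25% of 8766 in TE-1 passed that size. CNOT9, below the minimum mean, was left out in both lines, and CNOT3 in TE-1. In TE-1, CNOT3 was at 3.85 TPM in the control and not listed with l-lactate. CNOT9 was not listed in that control and was at 4.72 TPM with l-lactate. The median change was 0.03 over the 9 genes in KYSE30 and 0.11 over the 8 in TE-1, against 0.01 and 0.04 over all genes. CNOT6, whose levels are given above, was 1.15 times as high with l-lactate in KYSE30 (exact conditional 95% interval 1.04 to 1.27) and 1.12 times in TE-1 (0.981 to 1.27). The rise in KYSE30 includes an intronic PAC that was not listed in the control. Over the 3′ UTR PACs alone the level was 98.4 and 107 TPM, a ratio of 1.09 (0.985 to 1.21), and in TE-1 the ratio was 1.05 (0.923 to 1.20), so that both intervals include 1. In TE-1, CNOT2 was 1.26 times as high with l-lactate (1.10 to 1.44), CNOT8 1.20 times (1.04 to 1.38) and CNOT1 1.11 times (1.03 to 1.19). In KYSE30 the ratios of these 3 genes were 0.989 (0.867 to 1.13), 0.905 (0.771 to 1.06) and 1.02 (0.939 to 1.11). For the other genes measured in a line, the interval of the ratio included 1. All of these intervals take the library total as the scale. The log2 change in TE-1 was 0.32 for CNOT2, 0.26 for CNOT8 and 0.15 for CNOT1. Scaled by the median ratio over genes instead, it was 0.28, 0.21 and 0.10. No intervals were worked out on that scale, and CNOT1 had the lower limit closest to 1.

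Distal usage is the percent of a gene's TPM held by the last of its 3′ UTR PACs. It could be measured where 2 or more such PACs each exceeded 5 TPM in a library of the line. These were CNOT1, CNOT6, CNOT7 and CNOT11 in KYSE30, and the same genes and CNOT8 in TE-1. A change of 10 percentage points or more was counted. It was reached by CNOT6 alone, 1 of 4 genes in KYSE30 and 1 of 5 in TE-1, against 9.28% of 1638 genes in KYSE30 and 11.5% of 1640 in TE-1. Falls of that size occurred in 5.92% and 5.06% of genes, and in both lines in 1.20% of the 1255 genes measured in both. CNOT6 was chosen for this change, so that its values are a description.

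In KYSE30, 51.3% of CNOT6 tags were distal in the control (375 of 731 tags, Wilson 95% interval 47.7% to 54.9%) and 37.6% with l-lactate (304 of 809, 34.3% to 41.0%), a change of -13.7 percentage points (Newcombe 95% interval -18.6 to -8.76). In TE-1, 47.9% were distal in the control (242 of 505, 43.6% to 52.3%) and 25.1% with l-lactate (115 of 459, 21.3% to 29.2%), a change of -22.9 points (-28.6 to -16.9). Ordered from the largest fall, CNOT6 was number 47 in KYSE30 and number 8 in TE-1. Near the limit of 10 points in both lines, MSANTD7 lay just inside, with -10.7 points in KYSE30 and -10.4 in TE-1, and SNTB2 just outside, with -17.2 and -9.90.

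The individual CNOT6 sites show which isoforms carried the change. PAC 4, the full-length 3′ UTR, was at 50.5 TPM in the KYSE30 control and 42.4 TPM with l-lactate, a ratio of 0.839 (exact conditional 95% interval 0.719 to 0.979), and at 23.3 and 13.6 TPM in TE-1, a ratio of 0.583 (0.463 to 0.731). PAC 3, which ends 1533 nt earlier, was at 40.1 and 54.4 TPM in KYSE30, a ratio of 1.35 (1.16 to 1.58), and at 16.5 and 28.8 TPM in TE-1, a ratio of 1.74 (1.43 to 2.13). The most distal site was thus lower and its proximal neighbour higher in both lines, while the level of the gene changed less than either. PAC 2 was at 7.81 and 10.7 TPM in KYSE30 and at 8.76 and 8.74 TPM in TE-1, with ratios of 1.37 (0.965 to 1.97) and 0.998 (0.724 to 1.37), both of which include 1. The intronic PAC 1 was listed in both l-lactate libraries, at 5.30 TPM (38 tags) in KYSE30 and 3.07 TPM (26 tags) in TE-1, and in neither control. Its listed values were close to the level at which such PACs cease to be listed.

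**Figure D2:**
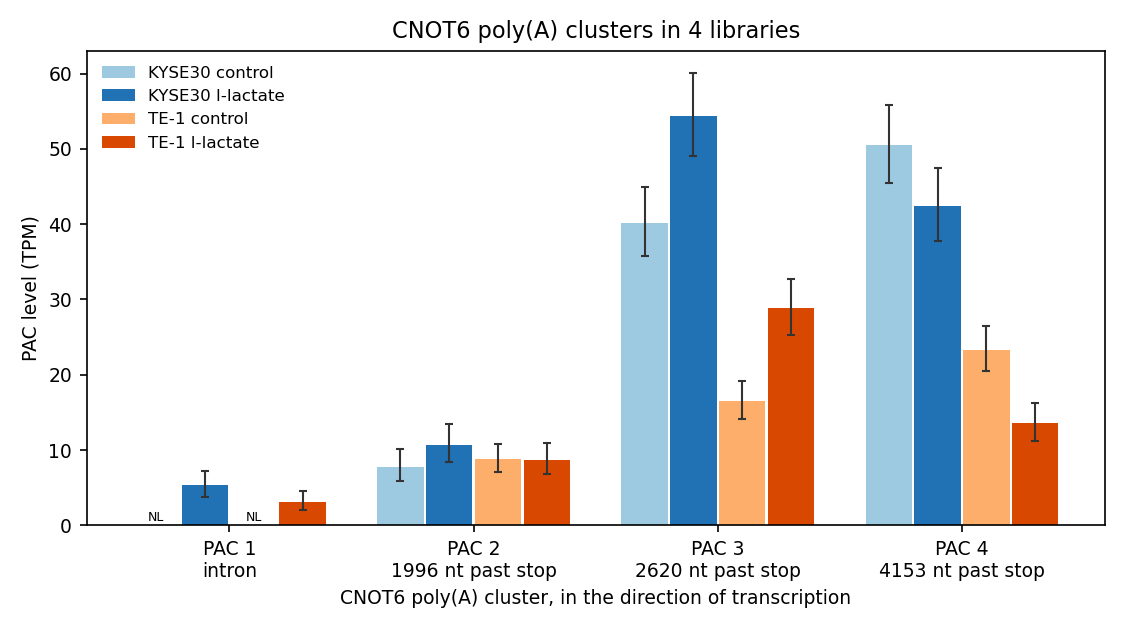
Level in TPM of the 4 CNOT6 poly(A) clusters in each library, with exact Poisson 95% intervals; NL marks a cluster not listed in a library. With l-lactate, PAC 3 is higher and PAC 4 lower than in the control of each line, and PAC 2 differs little in TE-1 (8.76 against 8.74 TPM).

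PAC 4 of CNOT6 covers 438 nt, so its single dominant position, which was the same in all 4 libraries, was also compared. This position held 25.7 TPM in the KYSE30 control and 19.5 TPM with l-lactate, a ratio of 0.759 (0.606 to 0.948), and 12.5 and 7.32 TPM in TE-1, a ratio of 0.585 (0.425 to 0.798). The dominant position of PAC 3 held 19.3 and 27.3 TPM in KYSE30 and 6.93 and 14.1 TPM in TE-1, with ratios of 1.42 (1.14 to 1.77) and 2.03 (1.5 to 2.76). The single positions therefore moved in the same directions as the clusters. Within PAC 4, the position by which 10% of the tags had accumulated lay 385 nt before the dominant site in the TE-1 control and 9 nt before it in the other 3 libraries, and the position of 90% of the tags lay 52 nt past it in the KYSE30 control and 3 nt past it in the others.

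The segment of 3′ UTR between PACs 3 and 4 is the part that only the distal CNOT6 isoform carries. It held 10 copies of AUUUA, the core of AU-rich elements to which decay factors such as ZFP36 proteins bind, counted on the transcribed strand. A stretch of the same length before the distal site held a median of 3 copies over 674 3′ UTRs, and 1.48% of them held 10 or more. The segment from the stop codon to PAC 2, of 1996 nt, held 6 copies, and the 624 nt from PAC 2 to PAC 3 held 1. The Pumilio motif UGUANAUA was not found between PACs 3 and 4, and 26.0% of the 674 stretches held it. UGUA itself, which the Pumilio motif contains, occurred 15 times there, against a median of 9, and 11.3% of the stretches held as many or more. The 100 nt upstream of the dominant site held 0 copies of UGUA for PAC 3 and for PAC 4. For PACs 1 and 2 it held 2 copies each. A match is a run of letters and does not show binding.

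The other genes of the complex with more than 1 site differed less. CNOT1 had a distal usage of 40.0% and 36.5% in the control and l-lactate libraries of KYSE30 and of 38.8% and 41.7% in those of TE-1, changes of -3.52 points (-7.51 to 0.480) and 2.90 points (-0.693 to 6.49), whose intervals include 0. CNOT11 was cut mainly at its distal site, in 92.6% and 94.9% of tags in KYSE30 and in 88.9% and 89.6% in TE-1, with changes of 2.30 points (-0.294 to 4.97) and 0.67 points (-2.09 to 3.36). At the minimum of 5 TPM, CNOT8 could be measured in TE-1 only. There distal usage was 75.0% in the control and 83.4% with l-lactate, a change of 8.38 points (2.80 to 13.9) in the direction opposite to CNOT6. In KYSE30 its PAC 1 was listed below that minimum, at 4.98 TPM in the control and 3.76 TPM with l-lactate. CNOT8 PAC 2 held 88.9% (85.1% to 91.9%) and 90.8% (86.9% to 93.6%) of tags in these libraries, with intervals that overlap. In TE-1, CNOT7 was 82.8% distal in the control and 86.3% with l-lactate, a change of 3.46 points (1.08 to 5.82). Its most distal listed site differed between the lines: the site at the gene end, 5754 nt past the stop codon, was listed in KYSE30 only (6.33 and 5.99 TPM), while in TE-1 the most distal listed site lay 1488 nt past the stop codon. In KYSE30 the site at the gene end held 4.84% of CNOT7 tags in the control and 4.94% with l-lactate, a change of 0.11 points (-1.87 to 2.13).

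Between the lines, distal usage was tested with limma over 1248 genes, of which 28.2% passed. Only PACs above 5 TPM in both lines entered, so that for CNOT7 the site 1488 nt past the stop codon (79.0% and 79.4% of tags in the control and l-lactate libraries of KYSE30, 82.8% and 86.3% in TE-1) took the place of the site at the gene end. Of the 4 genes of the complex measured in this way, 0 passed an adjusted p of 0.05, and 1 had an unadjusted p under 0.05. TE-1 minus KYSE30 was 5.36 ± 1.81 points for CNOT7 (SE, limma adjusted p = 0.111), -7.95 ± 2.92 points for CNOT6 (limma adjusted p = 0.129), -4.51 ± 1.67 points for CNOT11 (limma adjusted p = 0.133) and 1.98 ± 2.35 points for CNOT1 (limma adjusted p = 0.569). For CNOT6 the difference was -3.38 points between the controls and -12.5 points between the l-lactate libraries.

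Among 1064 genes with more than 20 TPM in every library, those with the distal usage most like that of CNOT6 over the 4 libraries were ATMIN, GGA2 and MTF2, with root mean square differences of 5.43, 6.52 and 6.79 points. ATMIN was at 42.0% and 32.4% in the control and l-lactate libraries of KYSE30 and 47.0% and 26.9% in those of TE-1. GGA2 and MTF2 had lower distal usage with l-lactate in each line. These genes were picked for values near those of CNOT6 in the same libraries. CNOT6 was chosen for its fall, so a shared fall follows largely from the choice.

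The dominant site of a PAC changed little, which does not cover the spread of tags within wide PACs. That spread differed in CNOT6 PAC 4, as given above, and in CNOT2 PAC 1. In CNOT2 PAC 1, the position of 10% of the tags lay 347 nt before the dominant site in the KYSE30 control. It lay 638 nt before that site in KYSE30 with l-lactate, and 643 nt before it in both TE-1 libraries. The dominant site moved by more than 24 nt between l-lactate and control in 0 of 14 PACs of the complex in KYSE30 and 0 of 15 in TE-1, against 1.43% and 1.24% of all PACs. The dominant site of CNOT8 PAC 2 lay 10 nt further downstream with l-lactate in TE-1. Of the 22 PACs, 16 were listed in all 4 libraries, beside 12344 of all 17627 PACs. Another 2 were listed in both l-lactate libraries and neither control, and 0 in both controls and neither l-lactate library. The shares of all PACs with these last patterns were 0.261% and 0.165%. The 2 PACs were CNOT6 PAC 1 and CNOT1 PAC 2, the latter in the 3′ UTR of another isoform at 3.21 TPM in KYSE30 and 3.54 TPM in TE-1.

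Other genes of mRNA decay were examined as a list of 62, comprising other deadenylases, BTG/TOB proteins, decapping and 5′-3′ decay factors, and proteins that recruit or bind the complex. Of these, 53 had a PAC and 43 were tested between the lines, with 14 higher in TE-1 and 21 higher in KYSE30. These 35 of 43 stand beside the 73.7% of all genes that passed, 36.9% in each direction. Of 16 recruiting and partner proteins, 4 were higher in TE-1 and 10 in KYSE30, beside the same 36.9% in each direction. The largest difference was that of ZFP36L1, an AU-rich element binding protein (-2.54 ± 0.20, limma adjusted p = 6.29e-07). It was at 16.7 and 15.1 TPM in KYSE30 and 1.92 and 1.89 TPM in TE-1. ZFP36L1 reached the minimum mean of 5 TPM only through KYSE30, so its p-value is given as a description only. YTHDF2, a reader of methylated adenosine that binds CNOT1, was higher in TE-1 by 0.60 ± 0.08 (limma adjusted p = 2.54e-05). PAN3, a subunit of another deadenylase, was lower in TE-1 by a difference of -1.04 ± 0.11 (limma adjusted p = 7.78e-06). BTG1, an antiproliferative protein that binds CAF1-type nucleases, was at 131 and 136 TPM in KYSE30 and 37.0 and 54.9 TPM in TE-1, and its l-lactate change of 0.56 in TE-1 was the only rise of at least 0.5 in the list, with 0.05 in KYSE30. LSM4, a subunit of the ring that promotes decapping, had the highest level of its group, at 292 and 313 TPM in KYSE30 and 396 and 377 TPM in TE-1. With l-lactate, 0 rose and 3 fell by at least 0.5 of 43 in KYSE30, where 2.65% of all genes rose and 2.66% fell by that much. In TE-1, 1 rose and 0 fell of 42, against 3.50% and 1.75% of all genes. In distal usage, 0 of 11 in KYSE30 and 0 of 9 in TE-1 changed by 10 points or more, against 9.28% and 11.5% of all genes, so that these counts are near the background.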

How the data were processed

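Of each library, the authors deposited a table of PACs with TPM values, which are RPM: the tags of a PAC scaled to the library total, with no correction for length. According to the study's methods, reads were aligned to GRCh38 with HISAT2, and PACs were called with CAGEr and joined when near each other. The step between TPM values gave the number of tags behind each value and the library totals. Unlisted PACs counted as 0 when the level of a gene was summed. PACs were placed on GENCODE 44 by the dominant site in the library with the highest TPM. Differences between the lines were fitted with limma 3.58.1 (R 4.3.3) over all genes, with treatment as a term and 1 residual degree of freedom per gene before moderation (10.6 in total for levels, 3.5 for distal usage), and p-values were adjusted by the Benjamini-Hochberg method. The 2 libraries of a line differ in treatment, and nothing says that they came from separate cultures, so these p-values measure only the spread between these libraries. The l-lactate comparisons, with 1 library per group, were not tested. Intervals are at 95% and cover counting error only; tags without molecular identifiers are not independent molecules. Simulated data were run through the line tests and the l-lactate change in distal usage. A minimum recovery was required of all of these but the line test of distal usage. The members and gene lists were chosen with earlier results of these data known. All 10 members are named; of the decay list, the gene with the highest mean TPM in each group, genes counted in the same direction by l-lactate in both lines, and the gene with the largest line difference. Other steps ran in Python 3.11.15 with SciPy 1.17.1, pandas 2.3.3, pysam 0.24.0 for sequences and NumPy 2.4.6, and figures in matplotlib 3.10.9.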

Additional observations from a re-analysis of the deposited data

Results flagged for a closer look

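For 4 genes the level went in opposite directions with l-lactate in the 2 lines; with 1 library per group the difference was not tested, and for none of the 4 did the counting intervals of both lines lie clear of a ratio of 1. The log2 ratio of l-lactate to control, KYSE30 first, was -0.016 and 0.32 for CNOT2, 0.18 and -0.16 for CNOT6L, -0.11 and 0.076 for CNOT7, and -0.14 and 0.26 for CNOT8. The distal usage of CNOT1 likewise changed by -3.52 points in KYSE30 and 2.90 points in TE-1, with intervals that include 0, and was not tested either.

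Besides the sites whose usage was compared, 2 PACs were listed in both l-lactate libraries and in neither control; they count in the total of their gene, and so in its distal usage. CNOT6 PAC 1, in an intron, was at 5.30 TPM in KYSE30 and 3.07 TPM in TE-1. CNOT1 PAC 2, in the 3′ UTR of another isoform, was at 3.21 TPM in KYSE30 and 3.54 TPM in TE-1.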

How the results depend on the processing

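Leaving out each library in turn, without the treatment term, gave between 3 and 5 genes of the complex past the threshold in level, the 3 without the KYSE30 control, and 0 each time in distal usage. Over all genes it gave 45.9% to 49.3% in level and 0% in distal usage, so with 3 libraries the latter says nothing of single genes. Differences in level that did not pass the test turned sign: CNOT8 (-0.049 without KYSE30 l-lactate, -0.11 without TE-1 l-lactate), CNOT6L (-0.032 without the KYSE30 control, -0.020 without the TE-1 control) and CNOT1 (0.046 without the TE-1 control). The distal usage difference of CNOT6 was 3.48 points without TE-1 l-lactate. These fits, the lowest listed TPM for unlisted genes, the values within controls and within l-lactate, and the CNOT6 level over 3′ UTR PACs alone were added after seeing the data.

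With a minimum of 10 TPM, 1 of 3 genes, CNOT6, passed the line test of distal usage (limma adjusted p = 0.0324), where 47.2% of all genes passed (326, against 352 or 28.2%), while a minimum of 1 TPM gave 0 genes in all and no treatment term gave 148. At 20 points for a counted l-lactate change, 0 genes of the complex remained counted in KYSE30, and at 5 points there were 2 of 5 in TE-1 (CNOT6 and CNOT8), where 35.6% of all genes were counted. By the midpoint of the quantile positions, 2 PACs moved by more than 24 nt in KYSE30 (CNOT2 PAC 1 and CNOT6 PAC 4) and 1 in TE-1 (CNOT6 PAC 4). The share of all PACs that moved by this measure was not worked out, so these counts have no background. The cause of these changes was not tested. Without a filter on level, and without the treatment term, CNOT11 missed the threshold between the lines (limma adjusted p = 0.0560 and 0.0523). With 3′ UTR PACs alone as the denominator, the CNOT6 change was -11.9 points in KYSE30 and -21.4 in TE-1. The edgeR and DESeq2 alternatives were not run; the tags worked out from TPM served for counting intervals only. Depth limits CNOT3 in TE-1, CNOT9 and the intronic CNOT6 site, each near the lowest listed level.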
